A study of Mus musculus with 18 samples.

Results

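The 9 genes described here encode the enzymes that write, copy and oxidise DNA methylation, together with the catalytic subunits of Polycomb repressive complex 2 (PRC2). They are the DNA methyltransferases Dnmt1, Dnmt3a and Dnmt3b, the methylation cofactor Uhrf1, the dioxygenases Tet1, Tet2 and Tet3, and the histone methyltransferases Ezh1 and Ezh2. They were chosen by symbol, for their known bearing on the stability of Foxp3 expression, and all 9 were found among the 26665 genes listed. The series measured RNA in 18 libraries from T cells sorted out of mouse spleen, as 6 groups with 3 libraries in each. The cells came from C57BL/6 mice carrying a Foxp3EGFP reporter that were either wild type or CD28-/-, so that every group, the controls included, carried the reporter. From each genotype the study sorted Nrp1+ regulatory T cells (Treg), which it names tTreg, Nrp1-negative Treg, which it names pTreg, and conventional T cells (Tconv). The age of the mice, the number of animals behind a library and whether replicates came from separate animals are not given in the sources used here, so the spread between the 3 libraries of a group may be in part technical.

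Dnmt1 copies methylation onto the newly made strand after replication, and Uhrf1 brings it there by binding DNA that is methylated on one strand only. Dnmt3a and Dnmt3b methylate sites that carry no mark, and the Tet enzymes oxidise 5-methylcytosine, which opens the way to its loss. Ezh2 and Ezh1 place methyl groups on lysine 27 of histone H3, the mark of Polycomb repression. In Treg, the intronic enhancer of Foxp3 known as CNS2 is kept free of methylation with the help of Tet2 and Tet3, Uhrf1 is needed for Treg to expand, and Ezh2 is induced when T cells are activated.

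Expression is given in FPKM, which is scaled to transcript length, so that levels can be compared between genes. By the median over the 18 libraries, Dnmt1 was the most abundant of the 9 at 26.2 FPKM, followed by Tet3 at 22.4 and Ezh1 at 20.4. Dnmt3a at 15.4, Ezh2 at 12.8 and Tet2 at 8.91 were intermediate. Dnmt3b at 3.18, Uhrf1 at 2.82 and Tet1 at 1.62 were the lowest. All 9 passed the filter on low values (an FPKM of 1 in at least 3 libraries), as did 12265 genes in all. Between the highest and the lowest group mean, Uhrf1 differed 3.31-fold, Tet1 2.73-fold and Ezh2 1.96-fold, whereas Dnmt1 differed 1.32-fold, Tet3 1.31-fold and Ezh1 1.25-fold.

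**Figure D1:**
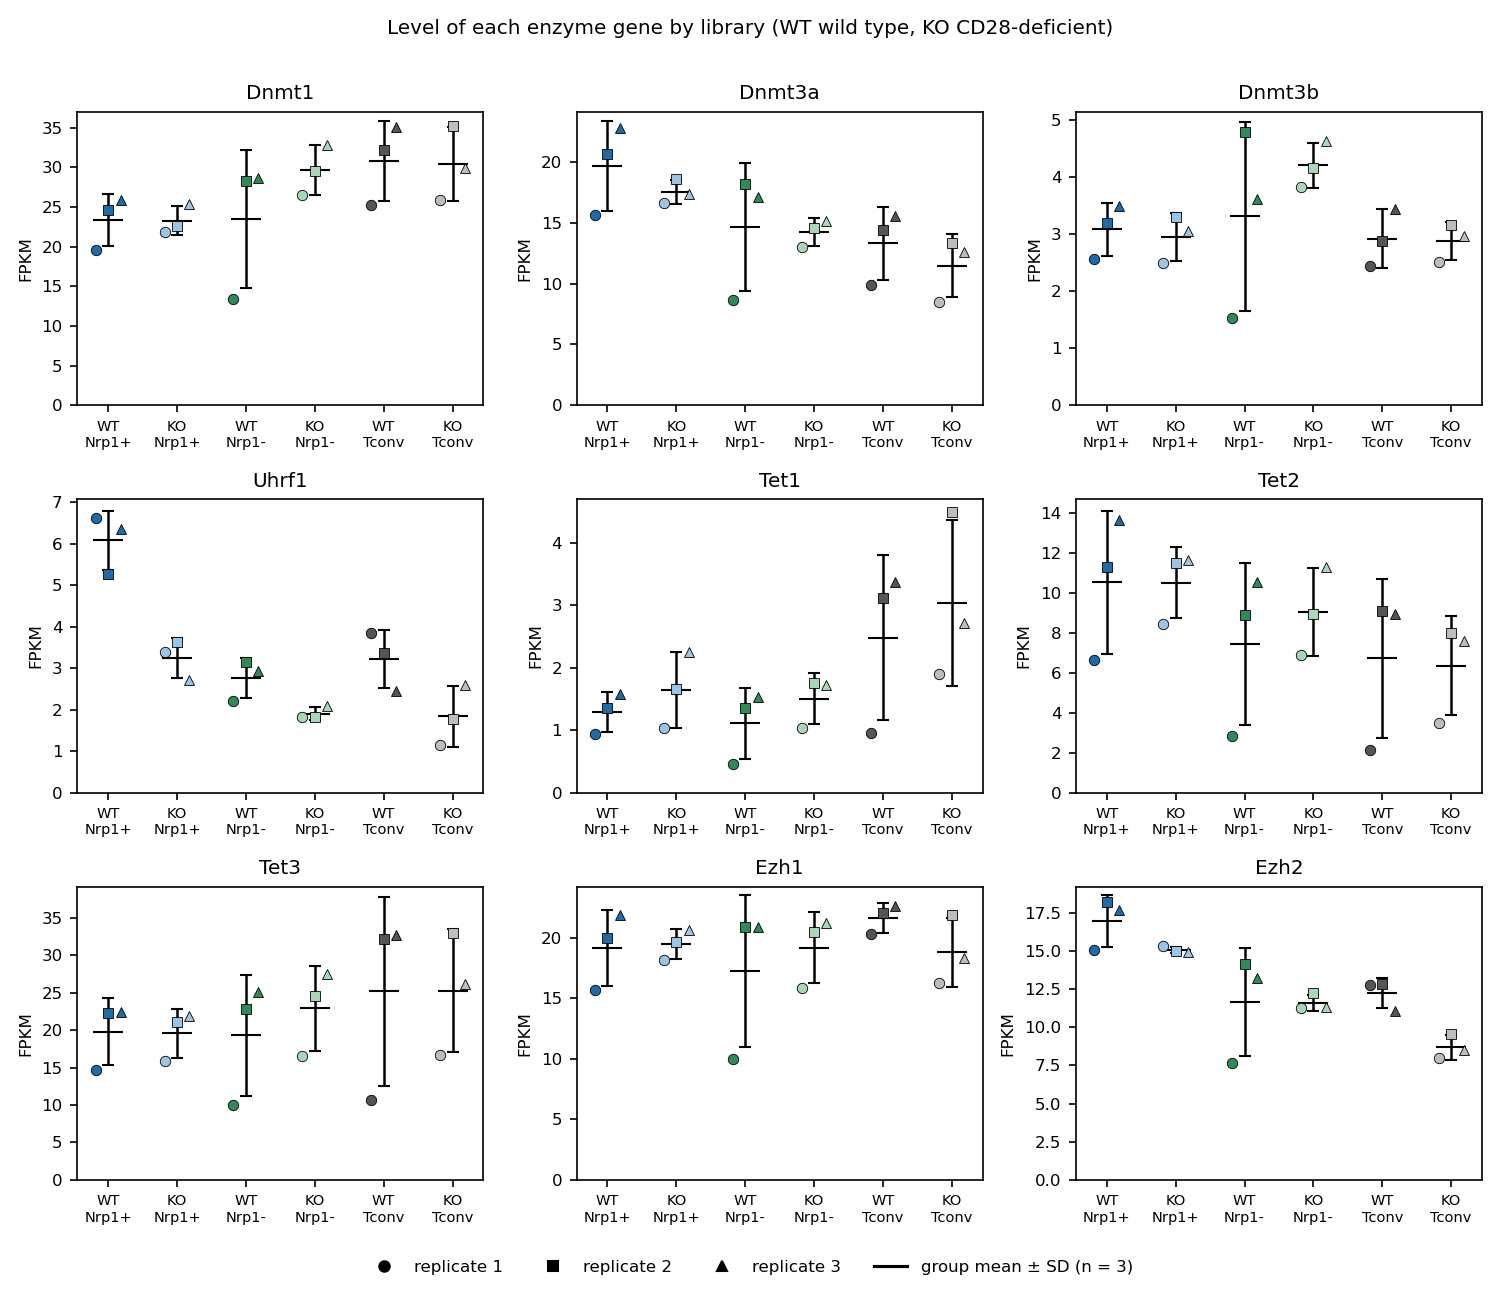
FPKM of each gene in every library, by group (WT, wild type; KO, CD28-deficient; Nrp1- stands for Nrp1-negative). Symbols give the replicate number, and bars the mean ± SD of n = 3 libraries. Uhrf1 is highest in wild-type Nrp1+ Treg, between 5.28 and 6.62 FPKM, and the circles of replicate 1 lie lowest in all 6 groups for 7 of the 9 genes.

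The levels of the sorting markers matched the labels in Foxp3 (56.0 FPKM or more in every Treg library) and Nrp1 (55.6 or more in Nrp1+ Treg, 0.911 or less in Nrp1-negative Treg), with exceptions. CD28-deficient Tconv replicate 3 held 21.1 FPKM of Foxp3, against 0.0670 in the lowest library of its group, and CD28-deficient Nrp1+ Treg replicate 3 held 46.1 FPKM of 4 Tconv markers together, against 4.30 and 7.32 in the other libraries of its group. Replicate 1 of 2 wild-type groups, Nrp1-negative Treg and Tconv, also stood apart, the first by the lowest number of genes at an FPKM of 1 (10703) and the second by the highest sum of FPKM (994139, against 514726 in the lowest library). The 4 Tconv markers were also found throughout Nrp1-negative Treg, at 18.6 to 38.0 FPKM in wild type and 29.7 to 43.9 without CD28. In Tconv they were at 147 to 241 and 140 to 192. Their part in levels of Nrp1-negative Treg that lie between Nrp1+ Treg and Tconv was not tested. Cd28 itself was not lower in the CD28-deficient libraries, which ran from 54.1 to 117 FPKM, against 31.5 to 82.8 in wild type. The deposited value does not say which part of the gene was counted, so Cd28 does not check the genotype labels.

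Changes are differences of log2(FPKM + 1) with their standard error, which understates the change of low genes such as Uhrf1 and Tet1. They come from a limma fit to all 18 libraries with Benjamini-Hochberg adjustment over the 12265 genes, and a gene was called at an adjusted p under 0.05. No member was called between CD28-deficient and wild-type cells, where 0.204% of all tested genes were called among Nrp1+ Treg, 0.204% among Nrp1-negative Treg and 0.791% among Tconv. At an unadjusted limma p under 0.05, the count was 1 member for the Nrp1+ subset, 0 for the Nrp1-negative subset and 2 for Tconv. The CD28 effect of no member differed between populations by limma, at any unadjusted p under 0.05 either. For that test 0.0245% of all genes were called between the Treg subsets, 0.122% between Nrp1+ Treg and Tconv, and 0.0734% between Nrp1-negative Treg and Tconv. Between Nrp1+ and Nrp1-negative Treg, 1 member was called in wild type (background 4.93%) and 0 in CD28-deficient cells (4.08%, with 1 member under an unadjusted 0.05). Between Nrp1+ Treg and Tconv, 1 member was called in wild type (12.6% of all genes) and 2 in CD28-deficient cells (12.1%). Between Nrp1-negative Treg and Tconv, 0 members were called in wild type (4.49%, 1 member under an unadjusted 0.05) and 0 in CD28-deficient cells (5.85%, 0 members). With 9 members, these counts are too small to set them apart from the background.

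**Figure D2:**
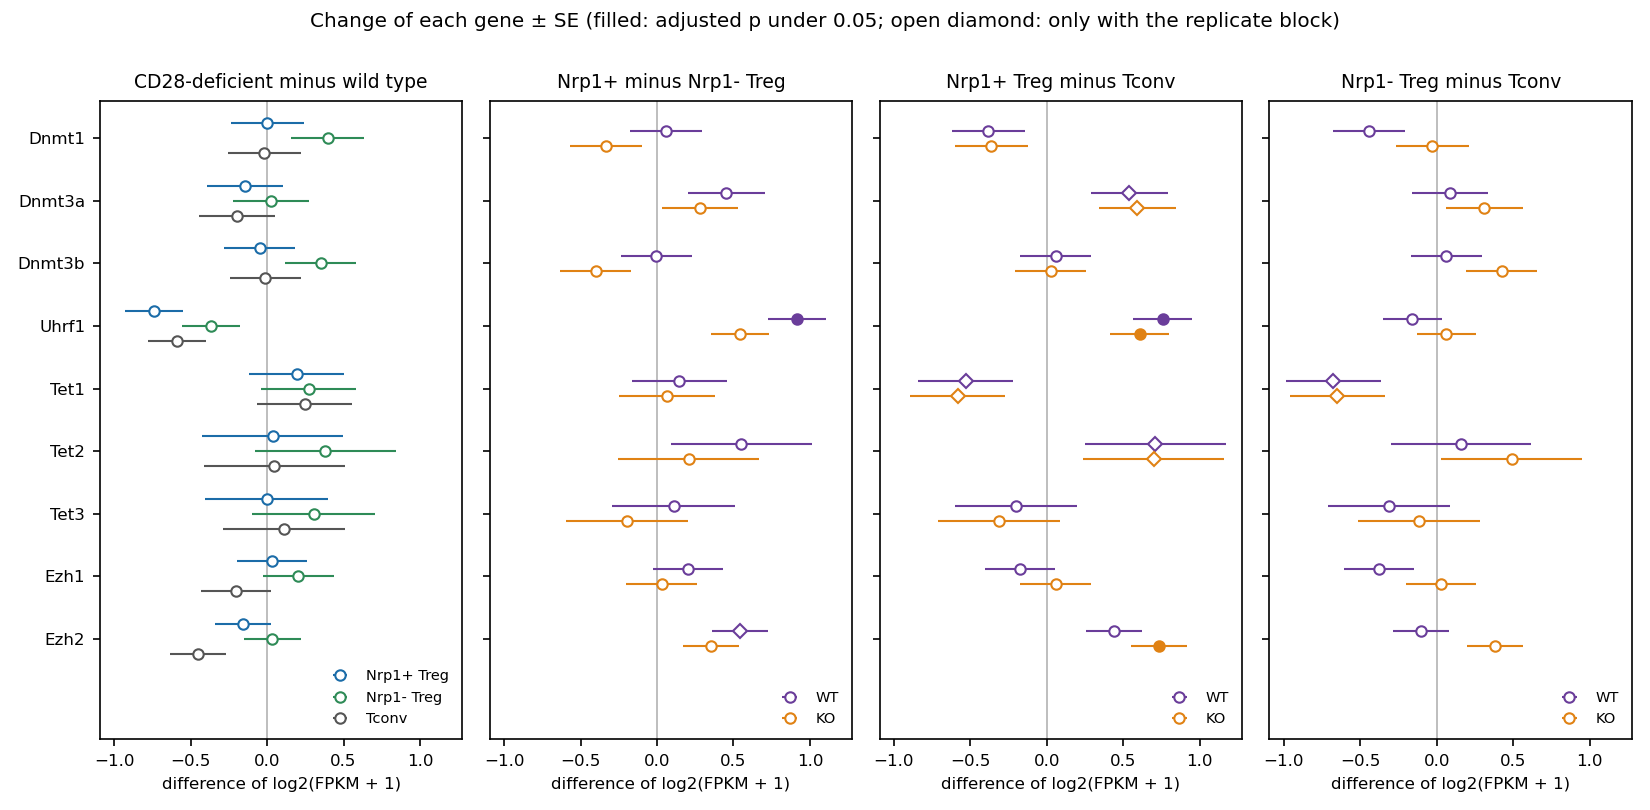
Difference of log2(FPKM + 1) ± SE for each gene in the 9 comparisons of 2 groups (WT, wild type; KO, CD28-deficient). Filled symbols passed the adjusted threshold in limma, and open diamonds passed it only with the replicate number in the model. The filled symbols are Uhrf1 in 3 comparisons and Ezh2 in 1, and the numbers do not pair the libraries behind the Tet1 diamond in the wild-type comparison of Nrp1-negative Treg with Tconv.

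A further set of tests was added after the values had been seen, because the same comparison could be averaged over genotypes or populations within the fit. The mean CD28 effect over the 3 populations was called for 1 member (1.56% of all genes). The mean difference between Nrp1+ and Nrp1-negative Treg was called for 2 members (8.89%), that between Nrp1+ Treg and Tconv for 3 members (19.9%), and that between Nrp1-negative Treg and Tconv for 0 members (9.01%, with 1 member at an unadjusted limma p under 0.05). The values are given gene by gene below.

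Uhrf1 (chromosome 17, 56303321 to 56323486, plus strand, GRCm38, 17 exons in its longest coding transcript) was the member that varied most. The 3 wild-type Nrp1+ libraries held 6.62, 5.28 and 6.35 FPKM, and the CD28-deficient Nrp1+ libraries 3.40, 3.63 and 2.70, with no overlap. In Nrp1-negative Treg, wild type gave 2.22, 3.15 and 2.93 FPKM and CD28-deficient cells 1.82, 1.81 and 2.08, again without overlap. Tconv held 3.84, 3.36 and 2.45 FPKM in wild type and 1.14, 1.78 and 2.60 in CD28-deficient cells. The last of these is the library that also held Foxp3, and the Tconv groups overlapped in that it exceeded wild-type replicate 3. In order of the group means, wild-type Nrp1+ Treg stood first and did not overlap the next group, while CD28-deficient Nrp1+ Treg, wild-type Tconv and wild-type Nrp1-negative Treg overlapped in turn.

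Uhrf1 was 0.92 ± 0.19 higher in Nrp1+ than in Nrp1-negative Treg of wild-type mice (limma adjusted p = 0.00769), and all 3 same-numbered pairs had this sign. A fit to these 2 groups alone, with fewer libraries, did not call it (adjusted p = 0.143). In CD28-deficient mice the same difference was 0.54 ± 0.19 and missed the threshold (adjusted p = 0.176). Against Tconv, Nrp1+ Treg held 0.76 ± 0.19 more in wild type (adjusted p = 0.0127) and 0.61 ± 0.19 more in CD28-deficient mice (adjusted p = 0.04997, just under the threshold). Nrp1-negative Treg and Tconv differed by -0.16 ± 0.19 in wild type and 0.06 ± 0.19 in CD28-deficient mice, neither called. The wild-type call against Tconv was lost without wild-type Nrp1+ replicate 1 (adjusted p = 0.0540), wild-type Nrp1+ replicate 3 (0.0528) or wild-type Tconv replicate 3 (0.0766). The call in CD28-deficient mice was lost in 14 of the 18 fits that each left out 1 library and fell to 0.35 (adjusted p = 0.222) after quantile normalization.

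Between CD28-deficient and wild-type cells Uhrf1 differed by -0.74 ± 0.19 in the Nrp1+ subset, by -0.37 ± 0.19 in the Nrp1-negative subset and by -0.59 ± 0.19 in Tconv. None of these passed limma's threshold over all genes (adjusted p = 0.263, 0.770 and 0.304). Averaged over the populations, Uhrf1 was -0.57 ± 0.11 lower without CD28 (limma adjusted p = 0.0116). This call held in each of the 18 fits without 1 library, with adjusted p between 0.00299 and 0.0357. Without the 3 libraries that stood apart (replicate 1 of wild-type Tconv and of wild-type Nrp1-negative Treg, and CD28-deficient Tconv replicate 3), the effect in Nrp1+ Treg alone was called (-0.74, adjusted p = 0.0317), in a fit that called 1.06% of all genes. The CD28 effect on Uhrf1 did not differ detectably between populations, the largest difference being 0.37 ± 0.27 between the Treg subsets (limma adjusted p = 0.863).

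Uhrf1 is expressed by dividing cells, and a list of 27 DNA replication and mitosis genes was set beside it. The summed FPKM of the list was 227, 211 and 228 in wild-type Nrp1+ Treg and 180, 183 and 179 in CD28-deficient Nrp1+ Treg, without overlap. It was 128, 190 and 177 against 150, 160 and 180 in Nrp1-negative Treg and 216, 182 and 170 against 136, 161 and 152 in Tconv. A sum of FPKM is weighted towards its most abundant genes. The replication gene Pcna by itself was at 106 to 140 FPKM in wild-type Nrp1+ Treg and 90.5 to 124 in CD28-deficient Nrp1+ Treg, with overlap. Of the 22 list genes that could be tested, 0 passed limma's threshold for CD28 within Nrp1+ Treg (7 at an unadjusted p under 0.05), 0 within Nrp1-negative Treg (2) and 0 within Tconv (6). At that unadjusted p these are 31.8%, 9.09% and 27.3% of the list, against 3.82%, 4.44% and 9.66% of all tested genes. For the mean CD28 effect 5 fell and 0 rose (22.7% of the list, against 1.56% of all genes called), and all 22 lay below 0, with a median of -0.23 against -0.01 over all tested genes. Among them Mki67, the proliferation antigen, fell by 0.45 ± 0.08 (adjusted p = 0.00765), Top2a, the replication topoisomerase, by 0.50 ± 0.10 (0.0128), and Rrm2, a subunit of ribonucleotide reductase, by 0.44 ± 0.10 (0.0432). Between wild-type Nrp1+ and Nrp1-negative Treg, 4 of the 22 rose and 0 fell (18.2%, against 4.93% of all genes called), led by the nucleotide salvage enzyme Tk1 (1.21 ± 0.31, adjusted p = 0.0272). In bulk libraries a change in the share of dividing cells and a change in RNA per cell cannot be told apart.

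Summed markers of B cells, another lymphocyte of the spleen, moved with Uhrf1 in part. The 5 markers together were at 10.6 to 12.3 FPKM in wild-type Nrp1+ Treg, 5.51 to 6.07 in CD28-deficient Nrp1+ Treg, 4.82 to 7.60 and 4.29 to 6.24 in wild-type and CD28-deficient Nrp1-negative Treg, 1.35 to 1.93 in wild-type Tconv and 0.942 to 3.22 in CD28-deficient Tconv. No marker of the 5 was at 0 in all libraries of a group. Their part in the Uhrf1 result was not tested.

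Uhrf1 and Ezh2 were the members called between 2 groups on the deposited scale with all 18 libraries and no block. Both are textbook targets of E2F factors, which switch on replication genes. The RefSeq promoters of all members (250 bases before to 50 after each start, GRCm38.p6) were therefore searched on both strands for 4 E2F-type words. The words were TTTCCCGC, TTTGGCGC, TTTGGCGG and TTTCGCGC. Dnmt3a, which was called as a mean over genotypes, held no match at any of its 3 starts. Of 14 annotated starts of the 9 genes, 3 held a match, against 777 of 32851 promoters in the table (2.37%). They belong to Uhrf1 (the second of 2 starts, TTTCGCGC 185 bases before the start), Ezh2 (TTTGGCGC beginning 3 bases after the start) and Dnmt1 (the first of 3 starts, TTTGGCGC 33 bases after the start and TTTCGCGC on the other strand 219 bases before it). No 2 matches overlapped. They are shown 5′ to 3′ on the strand of the gene with the matches in capitals, at chr17:56304063-56304362 (plus strand), chr6:47594981-47595280 (minus strand) and chr9:20952574-20952873 (minus strand).
Uhrf1 promoter: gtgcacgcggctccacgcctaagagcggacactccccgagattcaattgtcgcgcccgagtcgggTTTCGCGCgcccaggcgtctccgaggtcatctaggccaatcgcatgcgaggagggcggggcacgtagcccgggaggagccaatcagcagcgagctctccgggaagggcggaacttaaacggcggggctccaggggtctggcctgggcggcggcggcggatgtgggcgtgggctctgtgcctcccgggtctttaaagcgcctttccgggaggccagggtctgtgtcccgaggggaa
Ezh2 promoter: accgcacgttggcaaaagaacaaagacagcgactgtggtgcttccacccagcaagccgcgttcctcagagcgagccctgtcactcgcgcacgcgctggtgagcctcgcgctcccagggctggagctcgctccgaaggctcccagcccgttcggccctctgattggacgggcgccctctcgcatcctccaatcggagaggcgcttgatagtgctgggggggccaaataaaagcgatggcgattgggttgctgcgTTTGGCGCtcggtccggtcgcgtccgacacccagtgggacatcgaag
Dnmt1 promoter: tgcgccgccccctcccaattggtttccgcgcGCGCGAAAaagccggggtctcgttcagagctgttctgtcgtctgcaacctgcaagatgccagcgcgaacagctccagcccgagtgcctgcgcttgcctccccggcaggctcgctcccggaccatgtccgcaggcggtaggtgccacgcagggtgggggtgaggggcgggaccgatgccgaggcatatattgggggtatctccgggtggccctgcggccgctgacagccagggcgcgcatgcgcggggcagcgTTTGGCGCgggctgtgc
The 3 sequences hold 33, 31 and 33 CpG dinucleotides, against a median of 7 per promoter in the table. Some member starts without a match held about as many or more, with 46 and 47 at 2 starts of Dnmt3a, 57 at Tet2 and 30 at Dnmt3b. A match describes these letters only. The words were chosen after the calls were seen, each holds a CpG, and the background was not matched for CpG content. The comparison with all promoters therefore cannot show an enrichment. Across the 18 libraries Pearson's r was 0.78 between Uhrf1 and Ezh2, -0.28 between Uhrf1 and Dnmt1, and 0.00 between Ezh2 and Dnmt1, as a description over libraries that share groups and replicate numbers.

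Dnmt1 (chromosome 9, 20907209 to 20959888, minus strand) was abundant in every group. It was not called in any comparison on the deposited scale with all 18 libraries and no block. As the mean over genotypes, the difference between Nrp1+ Treg and Tconv was -0.37 ± 0.17 (limma adjusted p = 0.150), called with the block (0.0292, where 27% of all genes were called). Without the 3 libraries that stood apart, this mean was called without the block (-0.44, adjusted p = 0.00635). In that fit the wild-type difference from Tconv (-0.52, 0.0281) and the mean difference from Nrp1-negative Treg (-0.31, 0.0424) were also called. These 3 comparisons called 3653, 2355 and 2756 of all 12265 genes. Nrp1+ Treg held 19.6, 24.6 and 25.8 FPKM in wild type and 21.9, 22.6 and 25.4 without CD28. Nrp1-negative Treg held 13.4, 28.3 and 28.6 in wild type and 26.5, 29.5 and 32.8 without CD28. Tconv held 25.2, 32.2 and 35.0 in wild type and 25.9, 35.2 and 29.9 without CD28. All groups next to each other in the order of means overlapped, and the lowest library was wild-type Nrp1-negative Treg replicate 1. Between Nrp1+ Treg and Tconv all 6 same-numbered pairs were below 0, by -0.38 ± 0.24 in wild type and -0.36 ± 0.24 without CD28 (limma adjusted p = 0.413 and 0.512).

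The scale of the libraries bears on such small differences. The median change over all tested genes was -0.05, 0.19 and -0.16 for CD28 (Nrp1+ Treg, Nrp1-negative Treg and Tconv) and 0.19 between the Treg subsets in wild type. Quantile normalization, which removes these shifts, called 5 members between wild-type Nrp1+ Treg and Tconv (25.3% of all genes, of which 46.0% were higher, against 66.1% on the deposited scale). It called 4 between CD28-deficient Nrp1+ Treg and Tconv (23.0% of all genes, 49.7% of them higher, against 79.6%). On that scale Dnmt1 was lower in Nrp1+ Treg than in Tconv, with adjusted p = 0.0293 in wild type and 0.00623 without CD28. Between the Treg subsets without CD28 it called Dnmt3b as lower and Ezh2 as higher in Nrp1+ Treg (9.29% of all genes).

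Dnmt3a (chromosome 12, 3806007 to 3914443, plus strand) was higher in Nrp1+ Treg than in Tconv in all 6 same-numbered pairs. The wild-type Nrp1+ libraries held 15.6, 20.7 and 22.8 FPKM, and the CD28-deficient ones 16.6, 18.6 and 17.3. Tconv held 9.90, 14.4 and 15.6 in wild type and 8.53, 13.3 and 12.6 without CD28. Nrp1-negative Treg lay between by mean, with 8.62, 18.2 and 17.1 in wild type and 13.0, 14.6 and 15.2 without CD28. Nrp1+ Treg and Tconv did not overlap in either genotype, though in wild type they nearly touched (replicate 1 of Nrp1+ Treg and replicate 3 of Tconv both round to 15.6). The difference between Nrp1+ Treg and Tconv was 0.54 ± 0.25 in wild type and 0.59 ± 0.25 without CD28, not called on the deposited scale (limma adjusted p = 0.221 and 0.182). It was called as the mean of both genotypes (0.57 ± 0.18, adjusted p = 0.0314). That call was lost in 7 of the 18 fits without 1 library, namely those without any 1 of the 3 CD28-deficient Nrp1+ libraries, wild-type Nrp1+ replicates 2 and 3, or replicate 1 of either Tconv group (adjusted p up to 0.0959). It was also lost without the 2 libraries that held markers of another sort gate (0.0693).

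With the replicate number in the model, which pairs the libraries in these comparisons, the calls were more numerous. Between wild-type Nrp1+ Treg and Tconv 4 members were called (17.5% of all genes), Dnmt3a (adjusted p = 0.0274), Tet2 (0.0444) and Uhrf1 as higher and Tet1 (0.0472) as lower. In CD28-deficient mice 5 were called (16.6%), namely the same 4 in the same directions (Dnmt3a 0.0161, Tet2 0.0494, Uhrf1 0.0370, Tet1 0.0295) and Ezh2. Between the wild-type Treg subsets 2 were called, Uhrf1 and Ezh2 (9.98%), and between CD28-deficient Nrp1-negative Treg and Tconv 1, Tet1 (9.38%). For CD28 no member was called with the block in any population.

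Dnmt3b (chromosome 2, 153649450 to 153687730, plus strand) was expressed several-fold below Dnmt3a in every library, the ratio of Dnmt3a to Dnmt3b running from 3.28 to 6.68. It held 2.58, 3.19 and 3.49 FPKM in wild-type and 2.49, 3.31 and 3.06 in CD28-deficient Nrp1+ Treg. Nrp1-negative Treg held 1.53, 4.80 and 3.63 in wild type, the widest spread of any group, and 3.84, 4.16 and 4.63 without CD28. In Tconv it held 2.44, 2.89 and 3.45 in wild type and 2.52, 3.16 and 2.96 without CD28. The CD28-deficient Nrp1-negative Treg stood above all CD28-deficient Nrp1+ Treg and Tconv libraries. The differences were -0.40 ± 0.23 from Nrp1+ Treg (limma adjusted p = 0.515) and 0.43 ± 0.23 from Tconv (0.393), neither called.

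Within each library the ratio of 2 members is free of the scale of that library. It is not free of a shift that follows transcript length, as replicate 1 shows below. The ratio of Ezh2 to Ezh1, genes of unlike length, was highest in replicate 1 of every group. The ratio of Dnmt3a to Dnmt1 was 0.796, 0.842 and 0.882 in wild-type Nrp1+ Treg, 0.643, 0.644 and 0.597 for wild-type Nrp1-negative Treg, and 0.393, 0.448 and 0.444 in wild-type Tconv. Without CD28 it was 0.762, 0.825 and 0.684 for Nrp1+ Treg, 0.489, 0.494 and 0.463 for Nrp1-negative Treg, and 0.329, 0.378 and 0.420 for Tconv. The populations of a genotype did not overlap, in the same order in both genotypes, and within Nrp1-negative Treg the genotypes did not overlap. These ratios were picked after the values were seen and are given as a description, with no test.

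**Figure D3:**
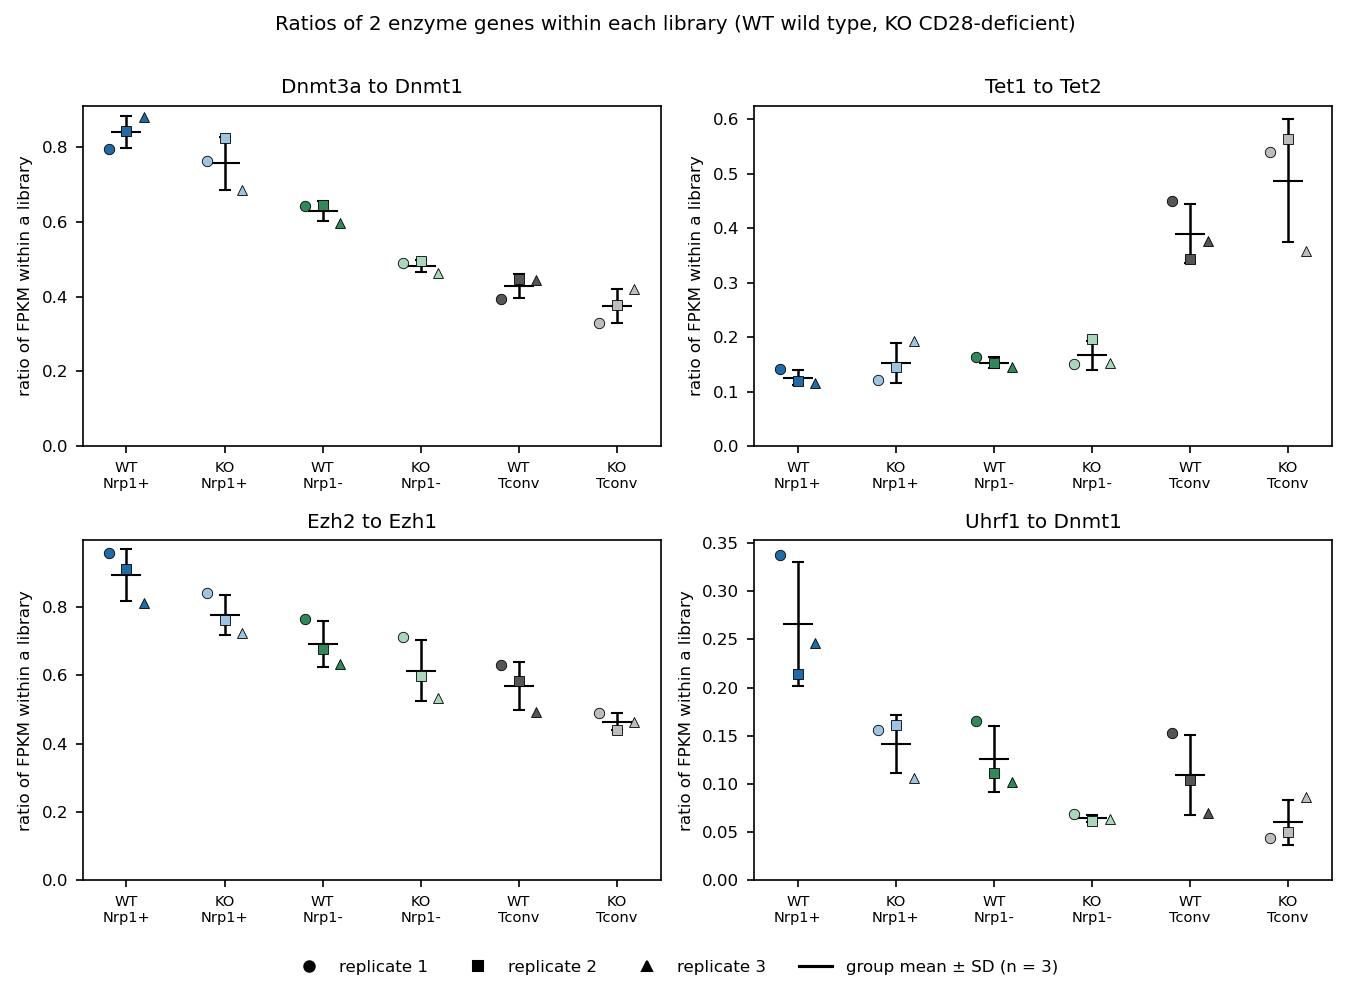
Ratio of the FPKM of 2 members within each library, by group (WT, wild type; KO, CD28-deficient; Nrp1- stands for Nrp1-negative), with symbols for the replicate number and bars for the mean ± SD of n = 3 libraries. Dnmt3a to Dnmt1 is highest in Nrp1+ Treg and lowest in Tconv of each genotype, and Tet1 to Tet2 is 0.344 or more in all Tconv libraries and 0.197 or less in all Treg libraries.

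Of the Tet genes, none was called between any 2 groups on the deposited scale with all 18 libraries and no replicate block. Quantile normalization called Tet1 as lower in Nrp1+ Treg than in Tconv (limma adjusted p = 0.0425 in wild type and 0.0198 without CD28). The fit without the 3 libraries that stood apart called it in wild type (0.0301). In that order, 3098, 2815 and 2355 of all 12265 genes were called. Tet1 (chromosome 10, 62804570 to 62908996, minus strand) held 0.935, 1.35 and 1.58 FPKM in wild-type and 1.03, 1.66 and 2.24 in CD28-deficient Nrp1+ Treg. Nrp1-negative Treg held 0.462, 1.35 and 1.52 in wild type and 1.04, 1.76 and 1.72 without CD28. Tconv held more by mean, with 0.957, 3.12 and 3.37 in wild type and 1.89, 4.50 and 2.71 without CD28. Because replicate 1 of wild-type Tconv was as low as the Treg libraries, these groups overlapped. The same-numbered differences of either Treg subset from Tconv were all 12 below 0, though the numbers do not pair the 3 of wild-type Nrp1-negative Treg. The differences from Tconv were -0.53 ± 0.31 and -0.58 ± 0.31 for Nrp1+ Treg in wild-type and CD28-deficient mice and -0.67 ± 0.31 and -0.65 ± 0.31 for Nrp1-negative Treg. On the deposited scale with all 18 libraries they were not called without the block (limma adjusted p between 0.296 and 0.377). Nor were they as means over genotypes (adjusted p = 0.0943 and 0.0785). Both means were called without the block after quantile normalization (0.00213 and 0.00718, with 4652 and 2428 of all 12265 genes called). So they were without the 3 libraries that stood apart (0.00771 and 0.0159, with 3653 and 2720 genes called). With the block both means were called (adjusted p = 0.00259 and 0.00135), in fits that called 27% of all genes for Nrp1+ and 14.4% for Nrp1-negative Treg. Between CD28-deficient and wild-type cells Tet1 differed by 0.19 to 0.27 per population, with no call, and by -0.09 in Tconv without the libraries that stood apart.

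Tet2 (chromosome 3, 133463679 to 133545139, minus strand) leaned the other way. In Nrp1+ Treg it held 6.63, 11.3 and 13.6 FPKM in wild type and 8.44, 11.5 and 11.6 without CD28. In Tconv it held 2.13, 9.08 and 8.95 in wild type and 3.50, 7.97 and 7.58 without CD28, so that the groups of wild type overlapped and those of CD28-deficient mice did not. Nrp1-negative Treg held 2.82, 8.90 and 10.5 in wild type and 6.89, 8.93 and 11.3 without CD28. Nrp1+ Treg exceeded Tconv in 6 of 6 same-numbered pairs, by 0.71 ± 0.46 in wild type and 0.70 ± 0.46 without CD28, with limma adjusted p = 0.442 and 0.516. This SE was the largest of any member, and with the replicate number in the model it was 0.23.

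Tet3 (chromosome 6, 83362373 to 83459084, minus strand) was the most abundant of the 3 Tet genes in every library. It held 14.6, 22.3 and 22.5 FPKM in wild-type and 15.8, 21.1 and 21.8 in CD28-deficient Nrp1+ Treg. Nrp1-negative Treg held 9.99, 22.8 and 25.0 in wild type and 16.6, 24.6 and 27.5 without CD28, and Tconv 10.6, 32.2 and 32.8 and 16.7, 33.0 and 26.1. All neighbouring groups overlapped and no comparison was called on the deposited scale with all 18 libraries, the SE being 0.40. Set against each other within a library, Tet1 and Tet2 separated Treg from Tconv. The ratio of Tet1 to Tet2 lay between 0.116 and 0.197 in all 12 Treg libraries, and was 0.450, 0.344 and 0.376 in wild-type and 0.540, 0.564 and 0.357 in CD28-deficient Tconv. The lowest CD28-deficient Tconv value is that of the library with Foxp3. The ratio of Tet2 to Tet3 was 0.453 to 0.607 in Nrp1+ Treg of both genotypes, 0.282 to 0.421 in Nrp1-negative Treg, and 0.200 to 0.290 in Tconv.

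Ezh2 (chromosome 6, 47530139 to 47595341, minus strand) was highest in Nrp1+ Treg. There it held 15.1, 18.2 and 17.7 FPKM in wild type and 15.3, 15.0 and 15.0 without CD28. Tconv held 12.8, 12.8 and 11.1 in wild type and 7.97, 9.59 and 8.49 without CD28. In each genotype the Nrp1+ and Tconv groups did not overlap. Nrp1-negative Treg held 7.63, 14.1 and 13.2 in wild type and 11.3, 12.2 and 11.3 without CD28, which placed them below Nrp1+ Treg and, without CD28, above Tconv with no overlap.

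Between Nrp1+ Treg and Tconv, Ezh2 rose by 0.73 ± 0.18 in CD28-deficient mice (limma adjusted p = 0.0113), whereas in wild type the difference was 0.44 ± 0.18 (0.159). This call ended without CD28-deficient Tconv replicate 1 (0.68, adjusted p = 0.0600) and without the 2 CD28-deficient libraries that held markers of another sort gate (0.73, adjusted p = 0.0929), a fit in which both groups kept 2 libraries. The mean of the genotypes was 0.59 ± 0.13 (adjusted p = 0.00291), with adjusted p no higher than 0.0105 in the 18 fits without 1 library. Between Nrp1+ and Nrp1-negative Treg the mean difference was 0.45 ± 0.13 (adjusted p = 0.0405), a call lost in 13 of those 18 fits, with adjusted p up to 0.105. It held only without a wild-type Nrp1-negative library or replicate 1 of wild-type Nrp1+ Treg or Tconv. It was 0.54 ± 0.18 in wild type and 0.35 ± 0.18 without CD28 (adjusted p = 0.129 and 0.447), and all 6 same-numbered pairs were above 0. Without wild-type Nrp1-negative Treg replicate 1, in which Ezh2 was at 7.63 FPKM, the wild-type difference was 0.29. Without CD28, Ezh2 was lower in Tconv by -0.45 ± 0.18 (unadjusted p = 0.0259, adjusted p = 0.462 by limma), and the 2 genotypes of Tconv did not overlap. The mean CD28 effect on Ezh2 was -0.19 ± 0.11, not called (limma adjusted p = 0.729). It was called without the 3 libraries that stood apart (-0.26, adjusted p = 0.0293, with 906 of all 12265 genes called). The block with quantile normalization called this mean (0.00751, 1336 genes) and the Tconv effect (-0.30, 0.0441, 214 genes).

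Ezh1 (chromosome 11, 101191115 to 101226463, minus strand), the paralogue that predominates in resting cells, varied least of the 9. It held 15.7, 20.0 and 21.9 FPKM in wild-type and 18.2, 19.7 and 20.6 in CD28-deficient Nrp1+ Treg. Nrp1-negative Treg held 9.98, 20.9 and 20.9 in wild type and 15.9, 20.5 and 21.2 without CD28, and Tconv 20.3, 22.0 and 22.6 and 16.2, 21.9 and 18.3. No comparison was called on the deposited scale with all 18 libraries, the adjusted p of the 9 comparisons of 2 groups lying at 0.421 or above. Ezh1 exceeded Ezh2 in all 18 libraries. The ratio of Ezh2 to Ezh1 was 0.958, 0.909 and 0.810 in wild-type Nrp1+ Treg and 0.841, 0.762 and 0.724 without CD28. It was 0.765, 0.677 and 0.634 against 0.710, 0.596 and 0.534 in Nrp1-negative Treg and 0.628, 0.583 and 0.491 against 0.491, 0.439 and 0.463 in Tconv. In each population and at each replicate number the CD28-deficient library had the lower ratio. The numbers do not pair the libraries between genotypes in either Treg subset, and there the ratios of the 2 genotypes overlapped.

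The members' partners were counted in 7 lists of 93 genes, 86 of which could be tested. These include the DNA replication and mitosis list described above. For CD28, 0 partners were called by limma within Nrp1+ Treg, Nrp1-negative Treg or Tconv. At an unadjusted p under 0.05 there were 8, 3 and 9 of the 86 (9.30%, 3.49% and 10.5%), against 3.82%, 4.44% and 9.66% of all tested genes, so the shares in Nrp1-negative Treg and Tconv lay near the background. The replication and mitosis list supplied 7, 2 and 6 of them. Among the 7 tested partners of DNA methylation, the remodeller Hells, which opens chromatin for methylation, was higher in CD28-deficient Nrp1+ Treg (4.08 ± 0.32 FPKM, SD, n = 3) than in Tconv (1.91 ± 0.45), by 0.81 ± 0.23 (adjusted p = 0.0234). It was the only call of that list between 2 groups (14.3% of the list, against 12.1% of all genes). The 8 readers of methylated DNA held 0 limma calls in the comparisons of 2 groups, with 1 reader at an unadjusted p under 0.05 between Nrp1+ Treg and Tconv in each genotype. In the list of 13 tested Tet partners and base excision genes, Idh2, the mitochondrial enzyme that makes the 2-oxoglutarate Tet enzymes need, was lower in Nrp1+ Treg (9.14 ± 0.15 FPKM) than in Tconv (30.8 ± 4.6) of wild type, by -1.64 ± 0.22 (adjusted p = 5.42e-05). Idh2 was also lower than in Tconv of the same genotype in CD28-deficient Nrp1+ Treg (-0.998 ± 0.219, adjusted p = 0.00428) and in wild-type Nrp1-negative Treg (-1.07 ± 0.22, 0.00716). Gadd45g, of a stress-response family linked to demethylation, was higher in Nrp1+ Treg than in Tconv by 1.23 ± 0.35 in wild type (adjusted p = 0.0288) and 1.67 ± 0.35 without CD28 (0.00318). Cxxc5, a CpG-binding protein that acts with Tet2, rose from 0.903 ± 0.202 FPKM in wild-type Nrp1-negative Treg to 2.72 ± 0.20 in Nrp1+ Treg, by 0.97 ± 0.19 (adjusted p = 0.00529). Between Nrp1+ Treg and Tconv, 23.1% of this list was called in wild type and 15.4% without CD28 (12.6% and 12.1% of all genes). Between the wild-type Treg subsets and between wild-type Nrp1-negative Treg and Tconv it was 7.69% (4.93% and 4.49% of all genes), which is 1 gene.

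Of the 11 other PRC2 subunits tested, 0 rose and 1 fell between Nrp1+ Treg and Tconv in either genotype (9.09%, below the 12.6% and 12.1% called over all genes). That gene is listed as E130012A19Rik, an older symbol of Epop, a PRC2-associated protein, with 2.81 ± 0.25 FPKM in wild-type Nrp1+ Treg and 7.12 ± 3.80 in Tconv (-0.997 ± 0.24, limma adjusted p = 0.0088). The core subunits that bind Ezh2 and Ezh1 were not called in these comparisons. Eed was at 27.2 ± 0.7 FPKM in wild-type Nrp1+ Treg and 29.2 ± 0.6 in wild-type Tconv, and Suz12 at 30.6 ± 3.9 and 26.5 ± 9.98. Of 21 subunits of the partner complex PRC1, which binds the Polycomb mark and ubiquitinates histone H2A, 2 rose and 0 fell between Nrp1+ Treg and Tconv in wild type, and the same number without CD28. This share, 9.52%, was below the 12.6% and 12.1% called over all genes. They were Kdm2b, which brings a PRC1 variant to unmethylated CpG islands (23.1 ± 3.9 against 9.52 ± 0.79 FPKM in wild type, 1.18 ± 0.19, adjusted p = 3.27e-04), and Pcgf2 (5.68 ± 1.19 against 2.40 ± 0.15, 0.96 ± 0.20, adjusted p = 0.00273). Without CD28, Kdm2b differed by 1.14 ± 0.19 (adjusted p = 4.53e-04) and Pcgf2 by 1.42 ± 0.20 (8.53e-05). Both were also higher in wild-type Nrp1+ than Nrp1-negative Treg, by 0.87 ± 0.19 and 0.85 ± 0.20 (adjusted p = 0.0113 and 0.0165). This was again 9.52% of the list, against 4.93% of all genes. The 4 enzymes that remove or compete with the Polycomb mark held 0 limma calls in the 9 comparisons of 2 groups (1 at an unadjusted p under 0.05, between the wild-type Treg subsets), the demethylase Kdm6b being at 36.6 ± 3.7 FPKM in wild-type Nrp1+ Treg and 32.0 ± 4.1 in wild-type Tconv.

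The genes whose levels ran most closely with each member over the 18 libraries, among 9814 named genes, were ranked by Pearson's r of log2(FPKM + 1). For Uhrf1 they were Bub1b (0.96), Top2a (0.95) and Dtl (0.95), which act in mitosis and replication. For Ezh2 they were Tspan31 (0.97), Blmh (0.95) and Crem (0.95). For Dnmt1 the closest were Map4k4, Ablim1 and Srpk1 (0.98 each), for Dnmt3a Tbc1d2b, Ermp1 (0.98 each) and Ide (0.97), and for Dnmt3b Slc28a2 (0.94), Fam160b2 (0.93) and Il27ra (0.92). Tet1 ran with Lyst, Heatr5a and Gpd2 (0.97 each), Tet2 with Phc3, Inpp4a and Nfat5 (0.99 each), and Tet3 with Usp31, Atp11b and Atp13a3 (0.98 each). For Ezh1 they were Tmem127, Pgam5 (0.98 each) and Zfp830 (0.97). Among the members themselves, the highest r were 0.90 between Dnmt3a and Tet2, 0.86 between Tet1 and Tet3 and 0.85 between Dnmt3a and Ezh2. The libraries share groups and replicate numbers, and no p is given.

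Replicate 1 was the lowest of the 3 libraries in all 6 groups for 7 of the 9 members, all but Uhrf1 (2 groups) and Ezh2 (4 groups). Over all tested genes this held for 26.4%, and it followed transcript length. It held for 3.96% of the shortest of 3 near-equal classes of genes by longest annotated transcript, 19.4% of the middle class and 57.3% of the longest class, over the 11578 tested genes (94.4%) with a length. The 7 members are those in the longest class, above 3747 bases, from Ezh1 at 4207 to Tet1 at 14369, while Uhrf1 at 3586 and Ezh2 at 2787 bases are the shortest. Averaged over groups, replicate 1 lay below the mean of replicates 2 and 3 by -0.06 for Uhrf1, -0.18 for Ezh2, -0.47 for Dnmt3a, -0.63 for Tet1, -0.85 for Tet3 and -0.97 for Tet2. On the deposited scale with all 18 libraries, the 4 calls made without the block in comparisons of 2 groups concern the 2 shortest members. The SE of the others was larger, from 0.23 for Dnmt3b and Ezh1 to 0.46 for Tet2. Quantile normalization also called longer members between wild-type Nrp1+ Treg and Tconv, namely Dnmt3a (limma adjusted p = 0.00346), Dnmt1 (0.0293) and Tet1 (0.0425). The part of transcript length in the calls was not tested. The part of replicate 1 in the differences between groups was not tested beyond the model with the replicate number.

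**Figure D4:**
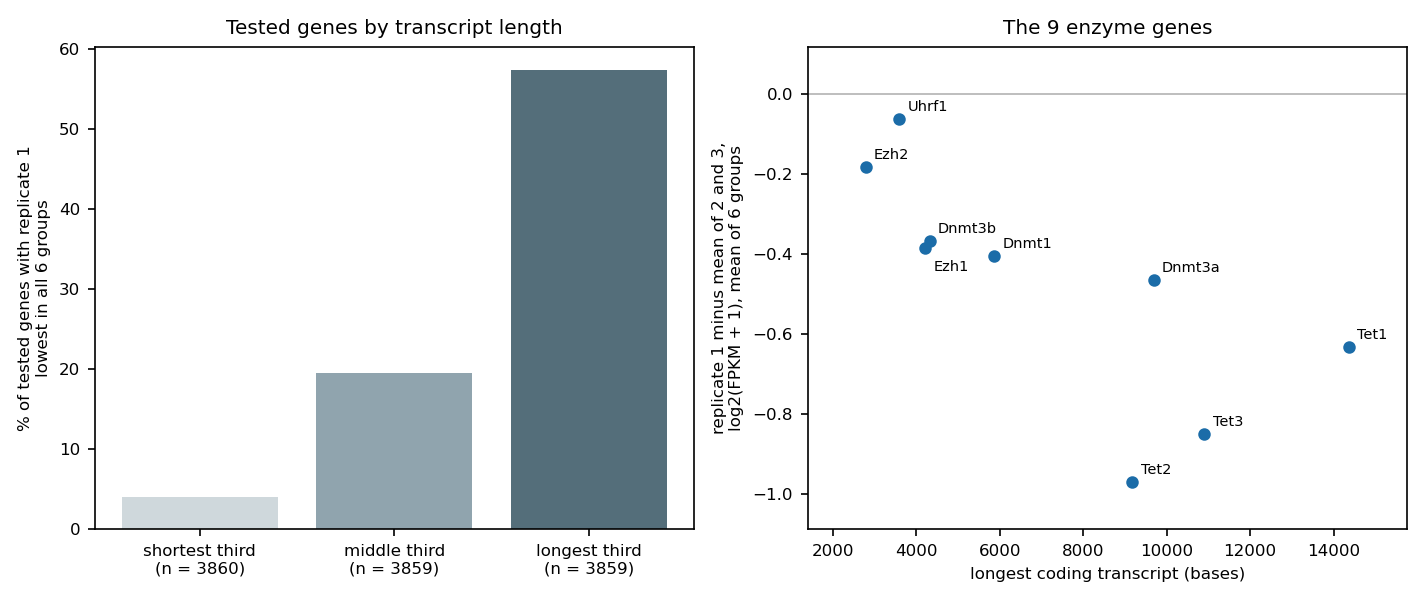
Left, the percentage of tested genes whose replicate 1 was the lowest of 3 in all 6 groups, in 3 near-equal classes of longest annotated transcript length. Right, for the 9 members, replicate 1 minus the mean of replicates 2 and 3 on the log2(FPKM + 1) scale, averaged over the 6 groups, against the length of the longest coding transcript in bases. The bars run from 3.96% to 57.3%, and Uhrf1 and Ezh2, at -0.06 and -0.18, lie nearest to 0.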

How the data were processed

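The 18 libraries hold 1 deposited FPKM value per gene. Trimmomatic, TopHat2 2.0.11, Cufflinks and GRCm38 are named in the submitters' processing notes. The file headers do not name the unit, which was taken to be FPKM from the values and from the authors' use of Cufflinks. Read depth is unknown, and no interval on single values is given.

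Genes at an FPKM of 1 in at least 3 libraries were kept (12265 of 26665), and log2(FPKM + 1) was fitted with limma 3.58.1 in R 4.3.3, over the 6 groups with a variance trend. P-values were adjusted by the Benjamini-Hochberg method over all tested genes, where residual degrees of freedom were 12 and prior ones 4.06 (median). The fit was tested on simulated data. Partner genes were named where called, up to 4 a list and comparison. The nearest genes were ranked by Pearson's r. The 4 averages over populations or genotypes, the within-library ratios and the E2F-type words were chosen after the values were seen. The members and lists were chosen with earlier results of these data known.

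Replicate numbers are shared between groups by the labels. They were taken to pair the libraries in 6 of the 9 comparisons of 2 groups, where each same-numbered pair's deviations correlated above 0.1. This did not hold for CD28 in either Treg subset or, in wild type, for the comparison of Nrp1-negative Treg with Tconv. Alternatives were another pseudocount (0.1), no filter, no trend, only the compared groups, quantile normalization, the replicate block, and libraries left out. Gene positions are those of GENCODE mouse release 21 on GRCm38, and promoters those of RefSeq.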

Additional observations from a re-analysis of the deposited data

How the results depend on the processing

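The number of members called moved with the setting, as did the number of all genes called. Without a filter, or without a trend, 1 was called between Nrp1+ Treg and Tconv in CD28-deficient mice, in place of 2. All genes called were 1826 of 24088 without the filter and 1458 of 12265 without the trend. Fits to the compared groups only called 0 between the wild-type Treg subsets (1 over 18 libraries), 1 between the CD28-deficient Treg subsets (0), 1 between CD28-deficient Nrp1+ Treg and Tconv (2), 1 for the mean subset difference (2) and 4 for the mean of Nrp1+ Treg against Tconv (3). In the same order, such fits called 220, 1212, 2183, 1060 and 3140 of all 12265 genes. Quantile normalization called 2 between the CD28-deficient Treg subsets, 5 and 4 between Nrp1+ Treg and Tconv in wild-type and CD28-deficient mice, and 4, 5 and 1 for the means of the subset, Nrp1+ against Tconv and Nrp1-negative against Tconv differences. Genes called in all were 1139, then 3098 and 2815, then 2547, 4652 and 2428 of 12265. The replicate block called 2 between the wild-type subsets, 4 and 5 between Nrp1+ Treg and Tconv in wild-type and CD28-deficient mice, 1 and 1 between Nrp1-negative Treg and Tconv, 6 and 1 for the means against Tconv, and 3 in place of 2 for the mean subset difference. With it, 1224, then 2144 and 2038, 1129 and 1150, 3307 and 1761, and 1933 of all 12265 genes were called. The block changed no other count of members called, and 17 of 18 libraries correlated best with another of their own number, as a hint from the data. The block with quantile normalization called 1 for CD28 in Tconv, 2 and 4 between the subsets, 7 and 5 for Nrp1+ Treg against Tconv, 2 and 2 for Nrp1-negative Treg against Tconv, and 2, 5, 8 and 5 for the 4 means. Over all 12265 genes it called 214, then 2137 and 2353, 4488 and 4066, 2078 and 2202, and 1336, 4449, 6053 and 3911. The block without the 3 libraries that stood apart called 1 for CD28 in Nrp1+ Treg, 2 and 4 between the subsets, 6 and 7, then 2 and 4 against Tconv, and 2, 5, 7 and 5 for the means. Over all 12265 genes this setting called 310, then 1839 and 3291, 3419 and 3640, 2093 and 3243, and 1091, 4516, 5286 and 4460. Without those 3 and without the block the counts were 1 for CD28 in Nrp1+ Treg, 2 between the CD28-deficient subsets, 4 and 3 for Nrp1+ Treg against Tconv in wild-type and CD28-deficient mice, 1 for CD28-deficient Nrp1-negative Treg against Tconv, and 2, 4, 5 and 3 for the means. All 12265 genes then gave 130, 1853, 2355 and 2459, 2082, and 906, 2756, 3653 and 2720 calls. Without the 2 libraries with transcripts of another sort gate, 1 was called for CD28-deficient Nrp1+ Treg against Tconv, 1 for the mean subset difference and 2 in place of 3 for the mean of Nrp1+ Treg against Tconv. Over all 12265 genes the calls were 1236, 918 and 2062. The cause of these shifts was not tested.

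Leaving out 1 library at a time gave 0 to 1 members for CD28 in Tconv, 1 to 2 between the wild-type subsets, 0 to 2 and 0 to 3 for Nrp1+ Treg against Tconv in wild-type and CD28-deficient mice, 0 to 1 for CD28-deficient Nrp1-negative Treg against Tconv, and 1 to 2, 1 to 3, 2 to 4 and 0 to 2 for the 4 means. With all 18 libraries, 97, 605, 1545 and 1484, 718, and 191, 1090, 2436 and 1105 of all 12265 genes were called in these comparisons. Over all 144 member changes, 33 changed sign without the 3 libraries that stood apart and 27 after quantile normalization, and 0 of these had been called. For CD28 in Nrp1-negative Treg, which then lacks wild-type replicate 1, Tet2 went from 0.38 to -0.11, Tet3 from 0.30 to -0.09 and Ezh1 from 0.20 to -0.13. Dnmt1 between the wild-type subsets went from 0.06 to -0.28. Among the 54 changes recomputed with each library left out in turn, 4 reversed. In wild type, Dnmt3a between Nrp1-negative Treg and Tconv (0.09) ran from -0.10 to 0.41, with -0.09 and -0.05 among the values. Tet3 ran from -0.7098 to 0.05935 (0.04632 in another fit) between Nrp1+ Treg and Tconv and from -0.8189 to 0.08289 between Nrp1-negative Treg and Tconv in wild type. The mean difference of Ezh1 between Nrp1+ Treg and Tconv ran from -0.11 to 0.0057. FPKM keeps no depth, so the counting error of low genes such as Tet1 and Uhrf1 is unknown.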
